A study of Caenorhabditis elegans with 4 samples.

Results

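Multi-peak regions are stretches of the Caenorhabditis elegans genome where overlapping binding calls for the heterochromatin protein HPL-2 followed one another without a gap. In all, 432 such regions were found in both replicates of a chromatin immunoprecipitation and sequencing (ChIP-seq) experiment. They were chosen by the positions of the deposited peaks alone. Within each replicate list, nuclear peaks that overlapped by at least 1 bp were merged, and merged regions made of 2 or more peaks were kept. A kept region of replicate 1 became a member when it overlapped a kept region of replicate 2 by at least 1 bp. The 432 members are 1.76% of the 24580 merged nuclear regions of replicate 1, and they overlapped 434 kept regions of replicate 2. Because peak positions chose them, their widths and peak numbers are given as descriptions with no test.

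All libraries came from young adult hermaphrodites of strain YL472, grown at 20 °C and fixed with 2% formaldehyde. There is thus 1 genotype and no difference in treatment. The worms carry the unc-119(ed3) mutation on chromosome III and the extrachromosomal array vrEx66, made by bombardment, which holds HPL-2 tagged with GFP and FLAG under the mex-5 promoter, the hpl-2 3' UTR and a wild-type unc-119 as rescuing marker. The mex-5 promoter is used to drive germline expression, the strain had not been outcrossed, and the labels name no mutation of the native hpl-2 gene. There are 2 ChIP libraries, precipitated with a goat antibody against GFP, and 2 input libraries. Peaks of the inputs are not analysed here and the samples include no worms without the tag, so background shared by both ChIP libraries and HPL-2 binding cannot be told apart. Reads from the array and from the native copies of its parts cannot be told apart either, and it was not determined whether a multi-peak region lies at one of those loci.

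HPL-2 belongs to the HP1 family, whose members bind methylated lysine 9 of histone H3 through a chromodomain and pair with partner proteins through a chromoshadow domain. HP1 proteins are known for coating chromatin over stretches longer than 1 nucleosome, which is the setting in which adjoining peaks are described here. In C. elegans, methylation of this lysine is concentrated on the arms of the autosomes, and the germline X chromosome is largely silent and carries other repressive marks.

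Replicate 1 holds 29973 nuclear peaks and replicate 2 holds 22838. All nuclear peaks of replicate 1 are 490 bp wide, and 22829 of those of replicate 2 are 420 bp wide, so a region grows wider than a single peak only where calls overlap. Read depth is unknown. Each peak has a rank, the number in its name, and 1 is taken here as the best of its list. These numbers do not strictly follow the deposited scores. The highest score of a list is shared by 511 nuclear peaks in replicate 1 and 1840 in replicate 2, and the numbers order these as well. All 329 peaks of the combined list share the same score, so their ranks reflect no difference in score. Ranks come from lists of different length and were read only within a list. Shares carry exact 95% Clopper-Pearson intervals, which reflect only how many regions were counted. Regions of 1 chromosome share their libraries and their surroundings and are not replicates of each other.

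Having several peaks in a region was less common than having 1. Of all merged regions, 4965 of 24580 in replicate 1 (20.2%) and 2444 of 20213 in replicate 2 (12.1%) were made of 2 or more peaks. The members are 8.70% of the former (interval 7.93 to 9.52%) and the 434 regions they overlap are 17.8% of the latter (16.3 to 19.3%). Multi-peak regions of replicate 1 met any region of replicate 2 in 41.0% of cases (2035 of 4965), and single-peak regions did so in 26.4% (5171 of 19615). A wider region covers more sequence in which to meet a partner, and how much of this gap width accounts for was not tested.

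Once a partner existed, a multi-peak form in 1 replicate went with only a slightly higher share of multi-peak form in the other. Among partnered regions of replicate 1, the partner was multi-peak for 21.2% of multi-peak regions (432 of 2035, interval 19.5 to 23.1%) and for 17.9% of single-peak regions (927 of 5171, interval 16.9 to 19.0%). Counted from replicate 2, the shares were 34.3% (434 of 1264, interval 31.7 to 37.03%) and 29.5% (1780 of 6032, interval 28.4 to 30.7%). The wider regions again covered more sequence. Of all 7206 regions of replicate 1 with a partner, 6.00% were members, 22.2% had several peaks in replicate 1 only and 12.4% in replicate 2 only. The other 59.4% were a single peak in replicate 1 with a single-peak partner in replicate 2. These 4277 shared single-peak sites are the comparison set used below, and 33 of them also met a multi-peak region of replicate 2.

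Most members were pairs of peaks. In replicate 1, 374 members held 2 peaks, 43 held 3, 12 held 4, 1 held 5 and 2 held 6. In replicate 2, where the best-ranked partner was taken if there were several, 380 held 2 peaks, 40 held 3, 11 held 4 and 1 held 5. A total of 326 members were a pair in both replicates with a single partner. Regions of 3 or more peaks made up 13.4% of the members in replicate 1 (58 of 432), where they were 7.25% of all multi-peak regions. In replicate 2 they made up 12.04% of the members (52 of 432), against 6.71% of all multi-peak regions. A longer region covers more sequence in which to meet a partner. How much of the difference follows from width was not tested, and no test of it is given.

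The regions were short in absolute terms. Their median width was 759 bp in replicate 1 (quartiles 710 and 837 bp, range 689 to 2126 bp) and 668 bp in replicate 2 (quartiles 632 and 722 bp, range 373 to 1640 bp). Neighbouring peak midpoints within them lay a median of 266 bp apart in replicate 1 and 247 bp in replicate 2. The smallest step in replicate 1 was 199 bp, which sets the narrowest region there at 689 bp. All multi-peak regions together had nearly the same medians, 744 bp and 662 bp. Widths over 1000 bp occurred for 51 members in replicate 1 and 21 in replicate 2, and for 3 in both. Of the 51, 45 had a pair as their partner in replicate 2, and 17 of the 21 were a pair in replicate 1, as the plot of widths shows.

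**Figure D1:**
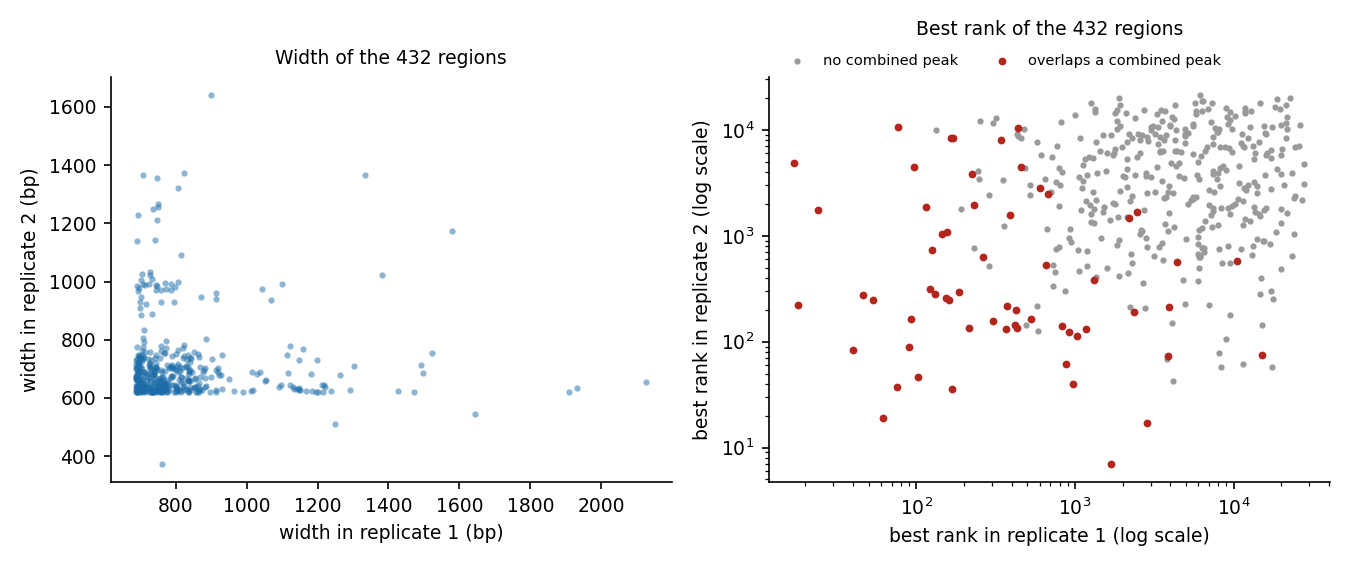
Left, the width in bp of each of the 432 regions in replicate 1 (horizontal) and in its best-ranked partner in replicate 2 (vertical). Right, their best ranks in both replicates on log axes, with the 60 regions that overlap a combined peak in red. Most widths sit near 759 and 668 bp, and the red points lie towards the best ranks.

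The 10 members with the most peaks over both replicates, with ties settled by the greater width in replicate 1, show how the calls were laid out. Chromosome III carried 6 of them, chromosome II 2, and chromosomes I and IV 1 each. The last places were tied, since 4 members had 7 peaks. The 2 of these left out were both on III, at 6207358 to 6208541 and at 9832433 to 9833524, so that with ties kept III carried 8 of 12. The widest of all spanned 5939038 to 5941163 on chromosome III (2126 bp). It held 6 peaks in replicate 1, with ranks from 1172 to 19421, but its partner in replicate 2 was a pair (ranks 2151 and 4429) at its left edge. The other region of 6 peaks, at 4170882 to 4172811 on III, had its best ranks at the right end, 102 and 430. There it met a pair ranked 46 and 760 in replicate 2 and the combined peaks 16 and 88.

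A region at 7496042 to 7497951 on III showed the opposite balance. It held 5 peaks in replicate 1, of which the best ranked 8153, and it met 2 pairs in replicate 2, whose best peaks ranked 78 and 740. The region at 10754246 to 10755578 on III held 4 peaks in each replicate. Its best ranks were 419 in replicate 1 and 145 in replicate 2, and combined peak 100 lay within it. At 11090240 to 11091140 on III, 3 peaks of replicate 1 (best rank 341) lay inside a partner of 5 peaks in replicate 2 (best rank 8080), the widest partner at 1640 bp. Further along III, the region at 13462036 to 13463273 held 4 peaks in replicate 1 (best rank 2693) and met 2 regions with 5 peaks in all in replicate 2 (best rank 361).

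Other chromosomes gave the remaining 4. On II, the region at 5378894 to 5380274 held 4 peaks in replicate 1 and met 5 in replicate 2, with best ranks of 1270 and 1354. The region at 7070955 to 7072534 on II was low in both lists, with best ranks of 9062 and 13100. On IV, the region at 11821479 to 11822782 held 4 peaks in each replicate (best ranks 2182 and 1474) and overlapped combined peak 200. On I, the region at 231129 to 232348 held 3 peaks in replicate 1 and met 4 in replicate 2, with best ranks of 17360 and 10646. A high number of peaks therefore occurred at both good and poor ranks. In 9 members, 3 or more peaks were present in a single region of each replicate. Of these, 5 lay on II, 3 on III and 1 on V.

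**Figure D2:**
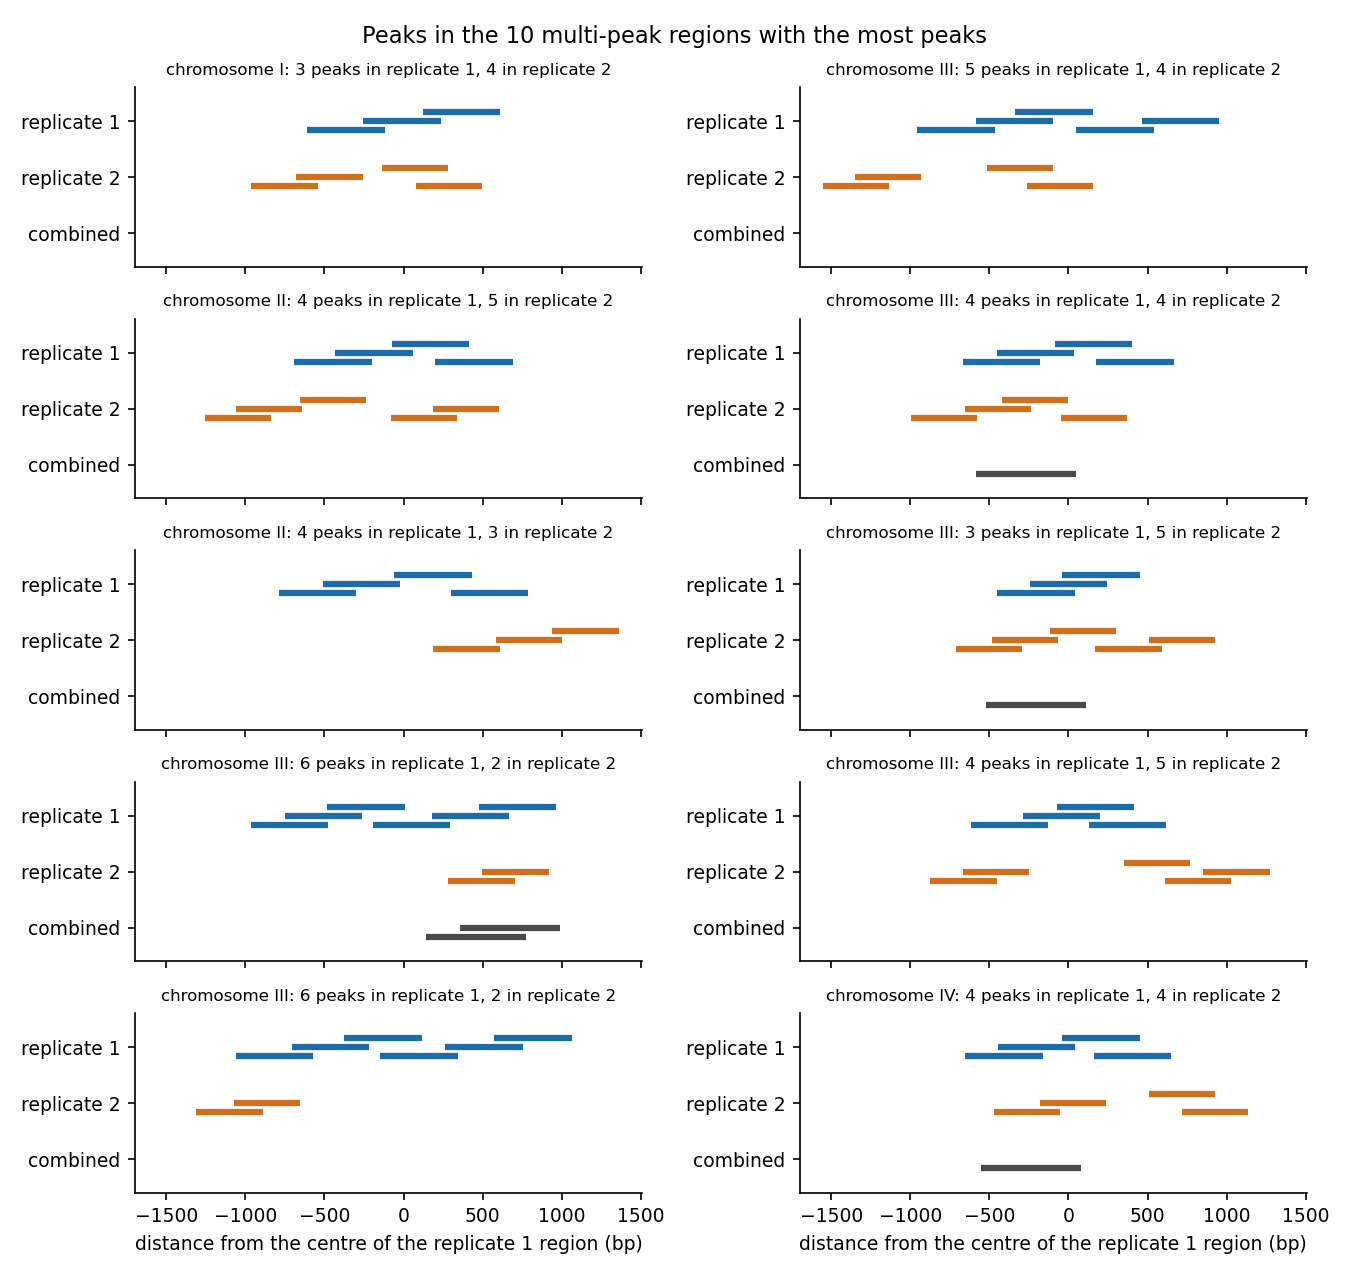
Peaks of the 10 multi-peak regions with the most peaks (ties by greater width in replicate 1), drawn as bars along the distance in bp from the centre of the region in replicate 1. Blue bars are peaks of replicate 1, orange bars those of its partners in replicate 2 and dark bars combined peaks, with overlapping bars set at different heights for legibility. The region with 4 peaks in each replicate on chromosome III has its bars over much the same stretch, while the widest one has its partner at the left edge only.

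The 10 best-ranked members all held the highest score in both replicates, as did 34 members in all. Their order therefore rests on peak numbers alone and not on a difference in score. The member with the lowest worse rank lay on IV at 7083212 to 7084379, with ranks of 62 in replicate 1 and 19 in replicate 2. It held 3 peaks in replicate 1 and overlapped combined peaks 3 and 121. Next came 3 members on I, at 12905799 to 12906488 (ranks 75 and 37), at 1835237 to 1835932 (40 and 84) and at 4171915 to 4172607 (90 in both). The 6-peak region on III described above followed, with ranks of 102 and 46. All 10 of the best-ranked members overlapped at least 1 combined peak. The others were on IV at 1710945 to 1711639 (ranks 167 and 36), on II at 5543671 to 5544360 (93 and 164), 5661780 to 5662493 (216 and 134) and 5844568 to 5845270 (18 and 221), and on X at 5801140 to 5801853 (53 and 249).

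The positions of the peaks inside a region were matched only in part between the replicates. The narrower region was overlapped by a median of 68.6% in the members and 65.7% in the shared single-peak sites. Overlap of at least 50% of the narrower region occurred in 298 of 432 members (68.98%, interval 64.4 to 73.3%) and in 2735 of 4277 sites (63.9%, 62.5 to 65.4%). The best-ranked peaks of both replicates lay within 100 bp of each other in 83 members (19.2%), and some pair of peaks did so in 267 (61.8%). Single-peak sites had their midpoints within 100 bp in 31.1% of cases. A member offers several pairs of peaks and such a site only 1, so the 61.8% and the 31.1% are not comparable. Among the 326 members that were pairs in both replicates, the better peak was on the same side in 209 (64.1%, interval 58.6 to 69.3%). Both peaks of replicate 1 lay within 100 bp of a peak of replicate 2 in 48 of these 326.

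The rule has a sharp edge at 1 bp of overlap. The members nearest to it overlapped their partners by 5 bp (III, 5875219 to 5876008) and 10 bp (IV, 8977492 to 8978376). Just outside, kept regions of replicate 1 missed a kept region of replicate 2 by 5 bp (I, 10230752 to 10231494, and III, 13623788 to 13624506). In all, 16 members overlapped by 50 bp or less, and 16 kept regions lay less than 50 bp away from one of replicate 2.

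Members ranked well ahead of single-peak sites, which the number of peaks favours. The median best rank of the members was 3686 in replicate 1 (quartiles 1239 and 8928) and 2915 in replicate 2 (quartiles 852 and 7769). In the shared single-peak sites it was 13773 and 10602. Being ahead of these sites was not particular to the members. Partnered regions with several peaks in replicate 1 only had a median of 6094 there. Those with several in replicate 2 only had a median of 4723.5 in replicate 2. The best of several peaks outranks a single draw, so every peak of the members was also taken. The median over these peaks was 8945 for replicate 1 and 7638 for replicate 2, where all nuclear peaks have medians of 15012 and 11446. The worst peak of each member, which is poorer by the same construction, had a median of 16913 and 13112, behind the single-peak sites.

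Members with several peaks among the 1000 best were few. Ranks within the 1000 best were reached by 92 members in replicate 1 (21.3%), 119 in replicate 2 (27.5%) and 43 in both (9.95%). For shared single-peak sites these shares were 5.68%, 6.22% and 1.75%. In replicate 2 this cut falls among the 1840 nuclear peaks of equal highest score. That score was reached by 170 of 432 members and 449 of 4277 sites in replicate 2. In replicate 1 the highest score was reached by 60 members and 151 sites. The second-best peak was also among the 1000 best in only 12 members in replicate 1 and 21 in replicate 2. Of the 92 and 119 members with such a best peak, 28 and 38 had a second-best peak beyond rank 10000. Where a region held 3 peaks, the middle one was the best in 16 of 43 members in replicate 1 and in 18 of 40 partners in replicate 2.

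More peaks in a region did not go with steadily better ranks. Members of 2 peaks in replicate 1 had a median best rank of 3533 there, those of 3 peaks 4901, and the 15 members of 4 or more peaks 2693. Across the members, Spearman's rho between the best ranks in both replicates was 0.20 (n = 432). It was 0.17 across the shared single-peak sites (n = 4277). Regions with several peaks in replicate 1 only had 0.24 (n = 1603), and those with several in replicate 2 only had 0.29 (n = 894). The points share their 2 libraries, so these are descriptions.

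The combined list of 329 peaks comes from the same libraries, and its overlap with the members is described for that reason without a test. Of the 432 members, 60 overlapped a combined peak, 13.9% (interval 10.8 to 17.5%), where 1.28% of all merged regions of replicate 1 did. The share was 2.27% in shared single-peak sites (97 of 4277), 5.74% in regions with several peaks in replicate 1 only and 6.38% in those with several in replicate 2 only. Seen from the combined list, 67 of its 329 peaks (20.4%) overlapped a member. Another 100 (30.4%) were counted in regions with several peaks in replicate 1 only and 58 (17.6%) in those with several in replicate 2 only. Shared single-peak sites accounted for 97 (29.5%). Of its 20 regions made of 2 overlapping peaks, 8 overlapped a member, 16 any multi-peak region of replicate 1 and 11 one of replicate 2. Among the members, 8 overlapped 2 or more combined peaks. Combined peaks were found in 10 of 58 members with 3 or more peaks in replicate 1 and in 50 of 374 with 2.

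Overlap with the combined list was most frequent at the best ranks, in members and in shared single-peak sites. Among members whose best peak was within the 1000 best of both lists, 30 of 43 overlapped a combined peak (69.8%, interval 53.9 to 82.8%). At the same ranks 55 of 75 shared single-peak sites did (73.3%, 61.9 to 82.9%). When the worse of both best ranks was between 1001 and 5000, the share was 18.5% in members (23 of 124, interval 12.1 to 26.5%) and 8.99% in sites (25 of 278, 5.90 to 12.99%). Between 5001 and 10000 it was 2.56% and 1.89%, with intervals that overlap. Beyond 10000 it was 2.70% (4 of 148, interval 0.741 to 6.78%) and 0.206% (7 of 3394, 0.0830 to 0.424%), and these intervals do not overlap. Members are wider than single peaks and so offer more sequence to overlap.

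**Figure D3:**
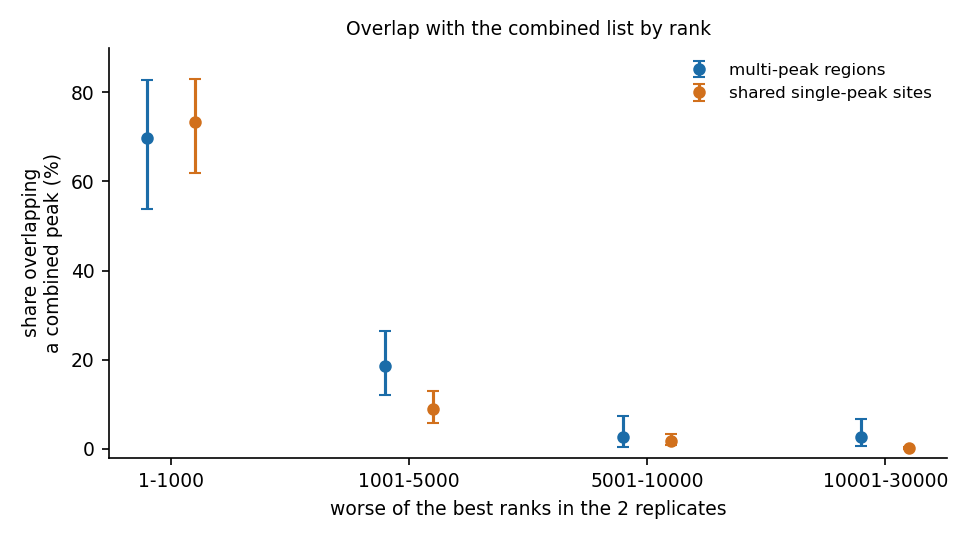
Share of multi-peak regions (blue) and of shared single-peak sites (orange) that overlap a combined peak, in percent, by the worse of their best ranks in both replicates. Bars are 95% exact intervals over regions. Both sets are at about the same share in the best 1000, 69.8% and 73.3%, and at low shares beyond rank 5000.

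Chromosome III was rich and X poor in members. Chromosome III held 106 of the 432, or 24.5% (interval 20.5 to 28.9%), against 18.1% of the shared single-peak sites (16.9 to 19.3%) and 13.7% of sequence length. X held 29, or 6.71% (4.54 to 9.50%), against 12.2% of the sites (11.3 to 13.2%) and 17.7% of length. In members per Mb, the chromosomes ran from 7.69 on III through 5.18 on I, 4.69 on IV, 4.58 on II and 3.20 on V to 1.64 on X. On I, II, IV and V the intervals of the member share and of the site share overlapped. Relative to sequence length, shared single-peak sites were 1.31 times as frequent on III, 1.30 times on I and 0.692 times on X as on average, so III did not stand apart from I in these sites. Differences between chromosomes were known when the regions were chosen.

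The excess and the shortage were smaller in each replicate taken by itself. Among all multi-peak regions, III held 16.9% in replicate 1 and 18.9% in replicate 2, and X held 13.7% and 11.6%. The share of multi-peak regions of replicate 1 that were members was 12.6% on III (106 of 841, interval 10.4 to 15.04%) and 4.28% on X (29 of 678, 2.88 to 6.09%). The remaining chromosomes lay between 6.91% on V and 9.62% on IV. Any partner was also found most often on III (48.9% of multi-peak regions of replicate 1) and least often on X (27.3%), but I was close to III at 47.0%. For single-peak regions it was 31.2% on III, 31.1% on I and 18.98% on X. Once a partner was present, it was multi-peak for 25.8% of these multi-peak regions on III, 18.7% on I and 15.7% on X.

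Members on X did not hold more than 2 peaks in replicate 1, but some did in replicate 2. None of the 29 held 3 or more peaks in replicate 1, and the widest there spanned 11447116 to 11447985 (870 bp). An absence among 29 allows a share of up to 10.3% by the approximation 3 divided by 29, which is not an exact interval. In replicate 2, 3 of the 29 (10.3%) had a partner of 3 or more peaks, against 52 of all 432 members (12.04%). On III, 17 of 106 members held 3 or more peaks in replicate 1 and 9 had such a partner in replicate 2, and on II it was 14 of 70 in each. The widest member of each autosome was 1304 bp on IV, 1471 bp on I (7861375 to 7862845), 1580 bp on II, 1644 bp on V and 2126 bp on III. The median best rank of members on X was 5882 in replicate 1 and 4603 in replicate 2, and that on III was 3309.5 and 2247. Combined peaks were overlapped by 18 of 106 members on III (17.0%, interval 10.4 to 25.5%) and by 4 of 29 on X (13.8%, 3.89 to 31.7%). The lowest share was that on V, 5 of 67 (7.46%, 2.47 to 16.6%), and all these intervals include the 13.9% of all members.

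**Figure D4:**
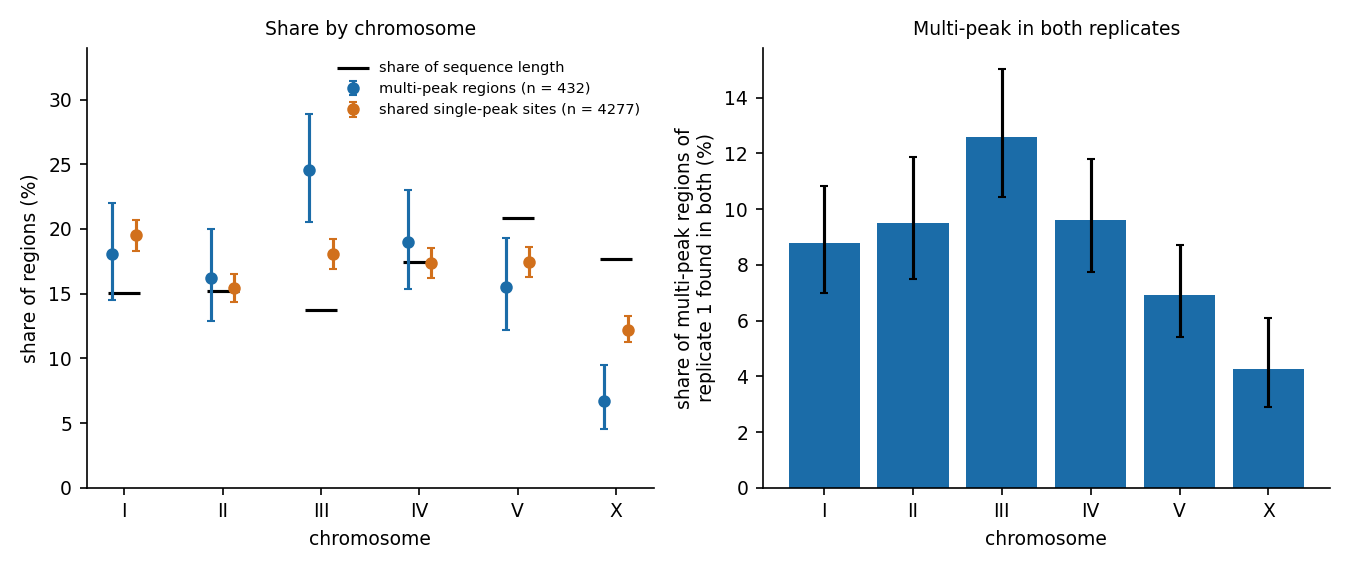
Left, share in percent of the 432 multi-peak regions (blue) and of the 4277 shared single-peak sites (orange) on each chromosome, with 95% exact intervals and the share of sequence length as black dashes. Right, the share of multi-peak regions of replicate 1 that were found in both replicates, with the same kind of interval. The shares on III (24.5% left, 12.6% right) are the highest and those on X (6.71% and 4.28%) the lowest.

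To place members in arms or centres, each autosome was cut into 3 equal lengths and the outer ones were called arms. Arms by this cut are 2 of 3 equal parts of the length, so a majority in arms is not an excess by itself. Of 403 autosomal members, 239 had their midpoint in an arm, 59.3% (interval 54.3 to 64.1%). In the shared single-peak sites the share was 64.5% (2422 of 3754, interval 63.0 to 66.05%). All multi-peak regions gave 66.04% in replicate 1 (interval 64.6 to 67.5%) and 62.4% in replicate 2 (60.3 to 64.5%). All merged regions gave 66.9% in replicate 1 (66.2 to 67.5%) and 64.4% in replicate 2 (63.7 to 65.1%). The member interval overlaps that of the sites and both intervals of replicate 2, and it lies below both intervals of replicate 1. It also lies below the share of length in arms, 2 of 3 parts, as do the interval of the sites and both intervals of replicate 2. Both intervals of replicate 1 include that share of length. With the outer 25% at each end as arms, the shares of members and sites were 40.7% and 47.9%, given without intervals. By chromosome the arm share of the members went from 51.2% on IV and 53.7% on V through 57.1% on II and 63.2% on III to 69.2% on I. Within IV, 28 members lay in the left part, 40 in the centre and 14 in the right. On X, 20 of 29 lay in the outer parts.

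**Figure D5:**
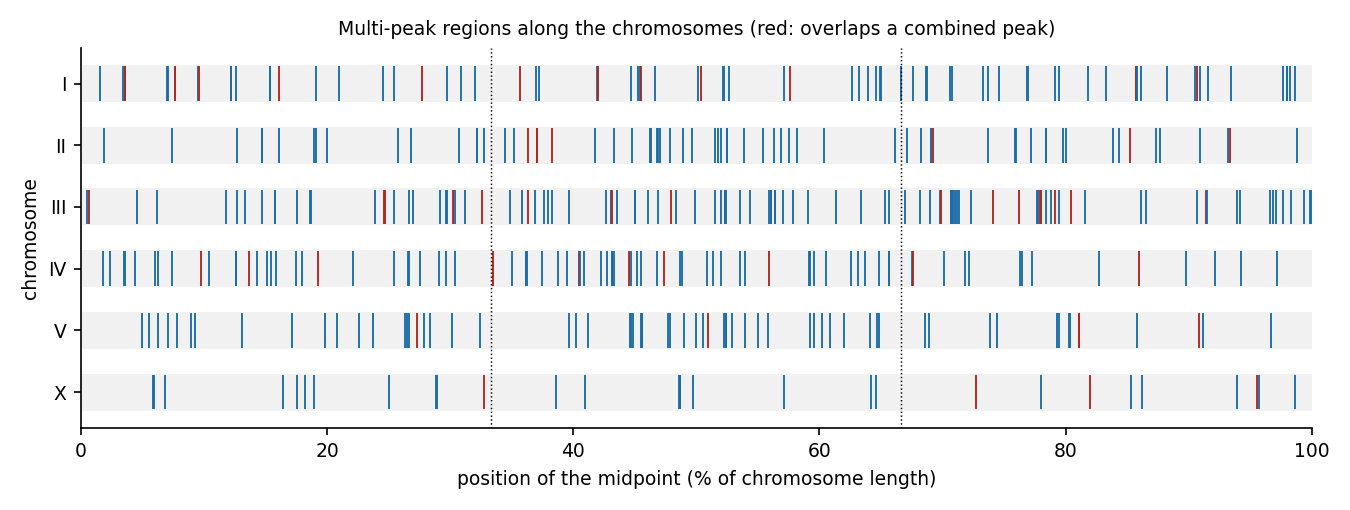
Midpoints of the 432 multi-peak regions along the 6 nuclear chromosomes, as percent of chromosome length, with dotted lines between the 3 equal parts. Blue lines overlap no combined peak and the 60 red ones do. The regions are spread over whole chromosomes, with 106 lines on III and 29 on X.

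Members lay nearer to one another than shared single-peak sites lay to members. The median distance from a member to the nearest other member, between midpoints, was 59067 bp, and 64 of 432 (14.8%, interval 11.6 to 18.5%) had one within 5 kb. Shared single-peak sites had a median distance of 79218.5 bp to the nearest member, and 315 of 4277 (7.36%, interval 6.60 to 8.19%) had one within 5 kb. The 64 members formed 28 groups, of which 21 held 2 members, 6 held 3 and 1 held 4. Some neighbouring members met the same region of replicate 2, such as those at 4911897 to 4912647 and 4912953 to 4913681 on II. Their nearness is therefore not independent of the rule, and how much of the difference this accounts for was not tested. The group of 4 spanned 10541809 to 10550179 on II (8371 bp), with best ranks of 1748 and 551 and no combined peak. The nearest shared single-peak site was a median of 4325 bp from a member, while such a site was 6229 bp from the next one of its kind. There are 4277 such sites and 432 members, so distances to sites and distances to members are not comparable with each other. Within 5 kb, 53.01% of members (interval 48.2 to 57.8%) and 43.5% of sites (42.0 to 45.0%) had a shared single-peak site. In windows of 100 kb, 691 of 1005 held no member, and the fullest 5 held 5 each, of which 3 lay on III.

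A group of 3 members on chromosome V, 16958337 to 16965959, stood apart in the form of its peaks and is named after its values were seen. All 9 nuclear peaks of replicate 2 that are not 420 bp wide lie there, within 6731 bp, with widths from 161 to 544 bp. Of these, 6 belong to the partners of the 3 members. The member at 16958337 to 16959099 ranked 587 in replicate 1 and 127 in replicate 2, that at 16962804 to 16964053 ranked 1677 and 7, and that at 16964316 to 16965959 ranked 2838 and 17. The last is multi-peak in replicate 2 only because 1 position, 16965103 to 16965646, is listed under the ranks 17 and 552. With repeated positions counted once, 431 members remained.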

How the data were processed

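Multi-peak regions were described from 3 deposited peak lists, 1 for each of the 2 ChIP libraries and 1 combined. Per the file headers, coordinates belong to WormBase WS220, and every row names SPP via IDR as its source. Of aligner, versions, thresholds and depth, nothing is given in the sources used here. A score deposited by the authors for each peak has no named scale and was used only to count peaks at the highest score. Peak numbers do not follow it strictly. For example, the members with best ranks of 576 and 728 in replicate 1 had best scores there of 2.58395 and 2.68574. What set the numbers is not given in the sources used here. Replicate numbers follow the sample titles, while the deposited lists carry the numbers 2 and 3. Nothing in the labels says whether the libraries came from separate cultures.

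Merging, matching and counting used Python 3.11.15, numpy 2.4.6, scipy 1.17.1 and matplotlib 3.10.9. They were tested on simulated lists and checked with bedtools 2.31.1. Chromosome length was the highest peak end in the 3 lists. Individual regions named are the 10 with the most peaks (ties by greater width in replicate 1), the 10 with the best worse rank and the widest on each chromosome. Members and lists were chosen with earlier results of these data known. No annotation or genome of build WS220 was used, so no genes or sequences are given.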

Additional observations from a re-analysis of the deposited data

Results flagged for a closer look

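Mitochondrial peaks lie outside the rule, which takes nuclear peaks only, and they too formed multi-peak regions. In replicate 1, 9 mitochondrial regions held 2 or more peaks, and in replicate 2, 7 did. Of the 9 in replicate 1, 7 overlapped one of the 7 in replicate 2 and would have met the rule. No input values were analysed here, and the combined list holds no mitochondrial peak.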

How the results depend on the processing

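Requiring peaks of a list to overlap by 50% of the shorter peak left 53 members, with a median best rank of 1153, 30.2% in the combined list, 30.2% on III and 3.77% near another member. At least 3 peaks in each list left 9, with a median width of 1099 bp, a best rank of 2693, 22.2% in the combined list, 33.3% on III, 0% on X, 44.4% in arms and 0% near another. The 10000 best nuclear peaks of each list left 74, with a best rank of 953.5, 43.2% in the combined list and 5.41% near another. Overlap of 50% of the shorter region between lists gave 18.9% in the combined list and 10.6% near another. Counting regions of replicate 2 gave a median width of 668 bp and a best rank of 3009, and trimming replicate 1 to 22838 peaks gave 323 members and a best rank of 2814. Taking the outer 25% at each end gave 40.7% in arms, and distances of 2 and 10 kb gave 8.33% and 21.99% near another. All multi-peak regions of 1 replicate alone numbered 2444 to 4965, with median widths of 662 to 744 bp, best ranks of 5601 to 7449, 3.20 to 4.66% in the combined list, 16.9 to 18.9% on III, 11.6 to 13.7% on X, 62.4 to 66.04% in arms and 29.3 to 42.7% near another. All shared regions that are not members numbered 6774. The settings for III and the counting of repeated positions once, which changed 1 member, were chosen after seeing the data. For these shifts the cause was not tested, though fewer or more regions follow from each setting. Read depth is unknown, and the number of regions limits every share.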

Other observations

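On chromosome V, the stretch from 16958916 to 16965646 held 12 peaks in replicate 2, of which 11 had the highest score of that list and the best ranked 7. In replicate 1 the same stretch held 11 peaks, none at its highest score, with ranks from 1677 to 26210. The combined list had 3 peaks there, and the best of them ranked 1, although all 329 combined peaks share the same score.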
